A study of Mus musculus with 48 samples.

Results

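The transcripts of glucose metabolism were followed gene by gene in the inner cell mass (ICM) of the mouse blastocyst. The members are 38 genes listed by name, 38 of 38 of which had a row among the 49671 genes counted. They cover glucose uptake (2 genes), the steps from hexokinase to pyruvate kinase (16), lactate dehydrogenase (2), the pyruvate dehydrogenase complex and 1 of its kinases (3), lactate and pyruvate transport (2), the pentose phosphate pathway (4) and the tricarboxylic acid (TCA) cycle (9). Symbols were matched to Ensembl gene identifiers through the GRCm38 annotation.

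Cell sorting between the progenitors of the epiblast (pEPI) and those of the primitive endoderm (pPrE) was the subject of the study. Its 48 single-cell libraries were made by Smart-seq2, in which cDNA is read along its whole length and molecules carry no identifiers. The cells came from 3 embryos at E3.75 that were positive for the PDGFRa::H2B-GFP/+ reporter, and the sample titles call them WT. The embryos were obtained by natural mating between PDGFRa::H2B-GFP/+ mice and F1 hybrids of C57BL/6JxCBA/J. The reporter is human H2B fused to GFP at the Pdgfra locus. The outer cells were removed by immunosurgery, and the ICMs were dissociated with Accutase and trypsin.

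No label names the embryo of a cell, so the 48 cells are 1 sample without replicates and nothing was tested across cells. The branch of each cell, 25 pEPI and 23 pPrE, was read by eye from the dendrogram that the study drew from the variable genes of these same cells. Differences between the branches are therefore descriptions of these cells. Total counts per cell ran from 2052874 to 5470475 (median 3751329) in pEPI and from 1718970 to 7342785 (median 4251373) in pPrE. Mitochondrial genes held a median of 6.97% of the counts in pEPI and 7.19% in pPrE. Levels are given as FPKM, and each log2 ratio is that of the mean FPKM of the pPrE cells over that of the pEPI cells. Its 95% interval covers counting error of reads only.

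The branches carried their lineage markers. The study drew the dendrogram from variable genes of these cells and coloured it by the ratio of Nanog to Gata6. The marker values therefore describe the branches and do not test them. Of 8 pEPI markers, 7 were at least 1.5-fold higher in pEPI, with Nanog at a log2 ratio of -2.85 and Klf2 at -3.25; Bmp4, at 0.17, was the exception. Of 8 pPrE markers, 6 had a mean of at least 1 FPKM over the 48 cells, and all 6 were at least 1.5-fold higher in pPrE, with Gata4 at 3.33 and Lama1 at 3.38. Of 8 trophectoderm markers, 4 reached a mean of 1 FPKM, and their most abundant gene was Krt8. Cdx2 had a count in 2 pEPI cells and 1 pPrE cell, Elf5 in 3 and 2, Gata3 in 2 and 7, and Krt7 in 1 and 0. Eomes was counted more often, in 10 pEPI and 12 pPrE cells, with a mean of 3.21 FPKM and a highest level of 15.1 FPKM. The summed level of this list averaged 71.6 FPKM in pEPI and 35.9 FPKM in pPrE. Its 2 members that were at least 1.5-fold higher in pEPI were Krt18 and Tfap2c, and the part of either in the values that follow was not tested.

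Glycolysis splits a glucose molecule into pyruvate, with the phosphofructokinase step as a main point of control, and several of its steps can be run by more than 1 isoenzyme. Pyruvate is either reduced to lactate by lactate dehydrogenase or passed through pyruvate dehydrogenase into the TCA cycle, while the pentose phosphate pathway draws on glucose 6-phosphate to make NADPH and ribose. In the mouse embryo, glucose uptake and glycolysis are known to increase as the blastocyst forms, after cleavage stages that depend largely on pyruvate.

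A mean of at least 1 FPKM over the 48 cells was reached by 34 of the 38 members. Hk1, Eno3, Ldhb and Slc16a3 stayed below it. Of the 34, 6 were at least 1.5-fold higher in pPrE (17.6%), beside 12.3% of the 10880 genes that reached that mean. At least 1.5-fold higher in pEPI were 2 (5.88%), beside 16.4% of those genes. The 6 were Slc2a3, Pfkl, Pfkp, Aldoc, Tpi1 and Pgam2, and the 2 were Slc2a1 and Pdk1. The median log2 ratio of the 34 was 0.11, and that of all 10880 genes was 0.00. With so few members, shares this near to those of all genes say little about the list, and the account below is of single steps. Counts were found in every cell for 23 of the 38 members, beside 3665 of all 49671 genes. The members were not compared with genes of like abundance.

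**Figure D1:**
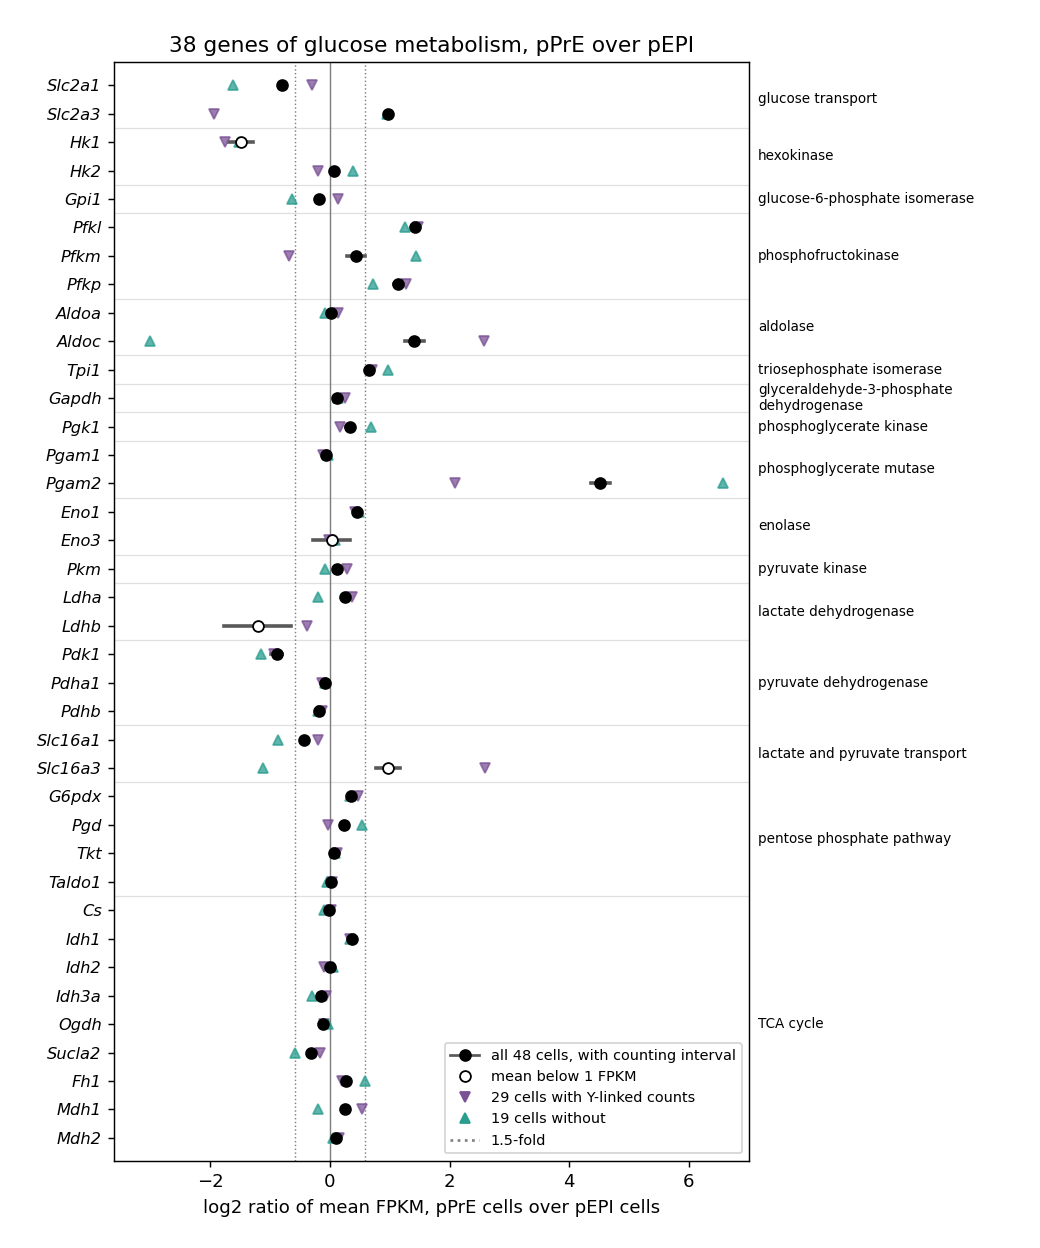
Log2 ratio of mean FPKM, pPrE cells over pEPI cells, for the 38 members in pathway order. Circles are all 48 cells with the 95% counting interval (open where the mean was below 1 FPKM), triangles the 29 cells with and the 19 cells without Y-linked counts, and dotted lines 1.5-fold. Pgam2, at 4.52, lies farthest to the right, and the circles of the pentose phosphate pathway and the TCA cycle lie between the dotted lines.

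With cells with and without Y-linked counts pooled, Pgam2 differed the most of all members between the branches, while Pgam1, the other isoform of phosphoglycerate mutase, was level. This enzyme moves the phosphate of 3-phosphoglycerate to the neighbouring carbon; Pgam1 encodes the widely expressed form and Pgam2 the form known from muscle. Pgam1 (chromosome 19, 41911923 to 41918660, plus strand) had 28.8, 57.9 and 84.2 FPKM as its lowest, median and highest level in pEPI cells, and 23.1, 57.4 and 89.6 FPKM in pPrE cells. Its log2 ratio was -0.06 (-0.10 to -0.02), and the cells of both branches covered the same range.

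Pgam2 (chromosome 11, 5801640 to 5803733, minus strand) had a lowest level of 0, a median of 0 and a highest of 19.6 FPKM in pEPI. In pPrE it ran from 0 through a median of 41.04 to 484.9 FPKM. Most pEPI cells had no Pgam2 count and most pPrE cells had many, although 1 pPrE cell had none and the lower pPrE cells overlapped the upper pEPI cells. The log2 ratio was 4.52 (4.36 to 4.68), a 22.96-fold difference of the means. It was 2.09 among cells with Y-linked counts, where Aldoc (2.57) and the rare Slc16a3 (2.59) were higher, and 6.56 among cells without them. A Pgam2 count was found in 10 of 25 pEPI cells (40%, exact binomial interval 21.1% to 61.3%) and in 22 of 23 pPrE cells (95.7%, 78.1% to 99.9%). After every cell had been thinned to 1718970 counts, these were 9 and 21 cells. The summed Pgam2 counts were 339 (Poisson interval 304 to 377) in pEPI and 6618 (6460 to 6779) in pPrE. Comparing every pPrE cell with every pEPI cell, Pgam2 was the higher in pPrE in 89.6% of pairs.

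Summed over both isoforms, the step had a median of 65.4 FPKM in pEPI cells and 96.4 FPKM in pPrE cells, a log2 ratio of 1.17 of the means. Pgam2 made up 5.85% of the step's summed FPKM in pEPI and 59.8% in pPrE. As a share of counts, which does not divide by the shorter length of Pgam2, it held 36.95% in pPrE. Pgam1 was the higher isoform in 25 of 25 pEPI cells. Pgam2 was the higher in 10 of 23 pPrE cells (43.5%, 23.2% to 65.5%). These values rested mostly on the cells without Y-linked counts. Among the cells with such counts the step had a log2 ratio of 0.23, Pgam2 held 26.7% of it in pPrE, and Pgam2 led in 2 of 12 pPrE cells. Among those without them the ratio was 1.77, the share 72.1%, and Pgam2 led in 8 of 11 pPrE cells. The pPrE cells kept Pgam1 near the pEPI level in either set.

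**Figure D2:**
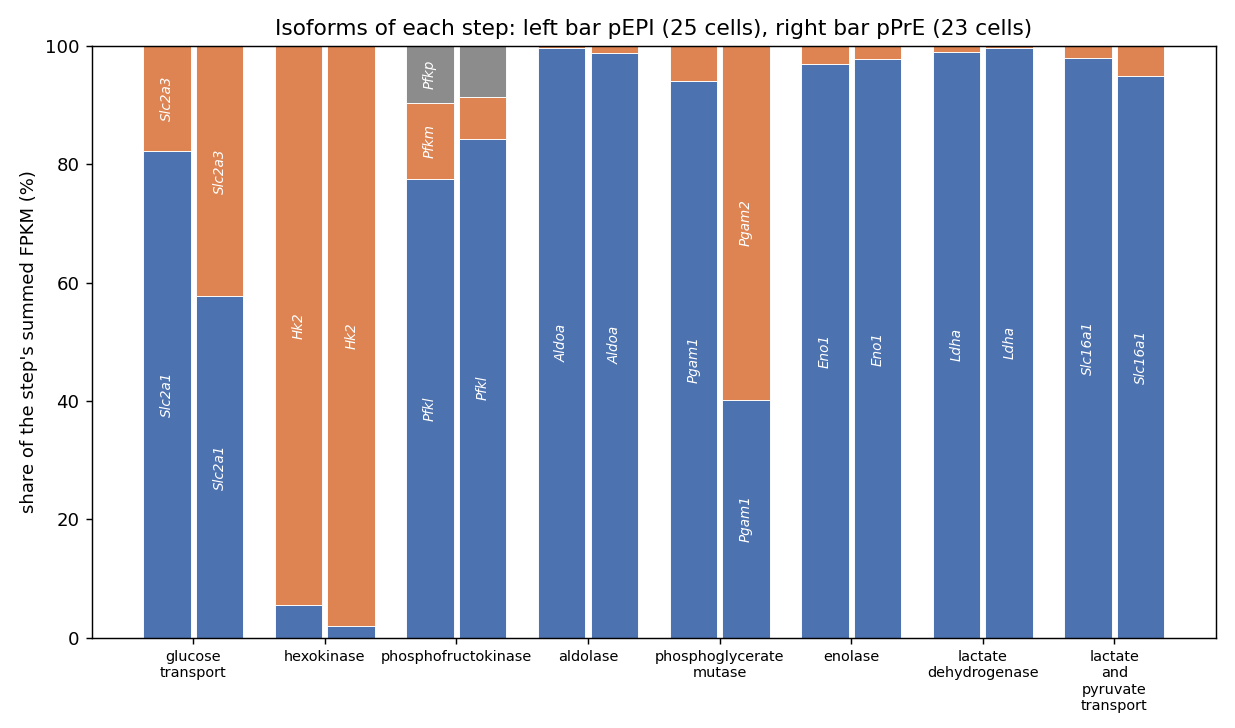
Share of each step's summed FPKM held by each isoform (%), for the 8 steps with more than 1 member; the left bar of each pair is the 25 pEPI cells and the right bar the 23 pPrE cells. Cells with and without Y-linked counts are pooled. In these pooled cells the leading isoform of phosphoglycerate mutase goes from Pgam1 (94.2% in pEPI) to Pgam2 (59.8% in pPrE).

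The bases before the transcription start of both isoforms are shown because the genes encode the same activity and differed so widely. Promoters of 36 of the 38 members were found in the RefSeq table for GRCm38.p6; the 250 bases upstream of the start are given 5′ to 3′ on the strand of the gene, with every CG dinucleotide in capitals. The Pgam1 window is chr19:41911621-41911870, plus strand, and the Pgam2 window is chr11:5803797-5804046, minus strand.
Pgam1: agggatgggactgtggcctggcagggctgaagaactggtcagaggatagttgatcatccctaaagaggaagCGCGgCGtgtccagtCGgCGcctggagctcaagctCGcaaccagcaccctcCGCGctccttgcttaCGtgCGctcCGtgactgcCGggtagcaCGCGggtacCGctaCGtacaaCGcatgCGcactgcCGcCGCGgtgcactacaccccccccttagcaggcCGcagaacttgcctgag
Pgam2: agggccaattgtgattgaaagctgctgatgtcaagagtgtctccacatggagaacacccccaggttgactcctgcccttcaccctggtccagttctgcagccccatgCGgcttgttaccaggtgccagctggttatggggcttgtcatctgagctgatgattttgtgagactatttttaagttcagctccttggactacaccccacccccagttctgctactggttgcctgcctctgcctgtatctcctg
The Pgam1 window held 22 CG dinucleotides and the Pgam2 window 1, beside a median of 15 over the promoters of the members and of 6 over all 32851 promoters in the table. Only 7.87% of all promoters had fewer than Pgam2. On either strand, ACGTG occurred 1 time in the Pgam1 window and not in that of Pgam2, and in 16.6% of all promoters. GATAA occurred in neither window and in 22.6% of all promoters. The MEF2 consensus, looked for after the sequence had been seen, had a match in the Pgam2 window and in that of no other member, and in 2.92% of all promoters. These matches describe the letters of the windows and are not evidence of binding.

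Phosphofructokinase, which commits the sugar to glycolysis, had a log2 ratio of 1.30 when summed over its isoforms, the largest of these sums over all 48 cells. It was 1.27 among cells with Y-linked counts and 1.20 among cells without them, where phosphoglycerate mutase was higher. Pfkl, which encodes the liver-type subunit, ran from 0 through 9.13 to 35.5 FPKM in pEPI and from 8.17 through 27.7 to 68.7 FPKM in pPrE. No pPrE cell was without Pfkl, while 2 pEPI cells were, and the middle of the ranges overlapped. The log2 ratio of Pfkl was 1.43 (1.39 to 1.46), and the pPrE cell was the higher in 86.96% of pairs. Pfkl held 77.4% of the summed FPKM of the 3 phosphofructokinase genes in pEPI and 84.3% in pPrE, and it was the highest of them in 23 of 25 and 23 of 23 cells.

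The remaining phosphofructokinase genes were low. Pfkp, the platelet-type subunit, had a median of 0.0168 and a highest level of 7.88 FPKM in pEPI, and a median of 2.28 and a highest level of 9.03 FPKM in pPrE. Counts of Pfkp were found in 13 of 25 pEPI and 21 of 23 pPrE cells, and the log2 ratio was 1.14 (1.07 to 1.22). Pfkm, the muscle-type subunit, had a median of 0.126 FPKM in pEPI and 0 in pPrE, with highest levels of 9.39 and 14.002 FPKM; the log2 ratio was 0.43 (0.28 to 0.59). Pfkm was lower in pPrE among cells with Y-linked counts (-0.68) and higher among cells without them (1.44). Both genes share exon bases with a neighbour, Pfkm with Senp1 and Pfkp with Pitrm1, so their counts are uncertain.

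At glucose uptake, Slc2a1 (GLUT1, a facilitative transporter) had 18.8, 48.6 and 111 FPKM as lowest, median and highest level in pEPI and 3.41, 20.8 and 80.3 FPKM in pPrE. The lowest cells were pPrE cells, but the upper part of the pPrE range lay within that of pEPI. For Slc2a1 the log2 ratio was -0.80 (-0.84 to -0.76), and it was -0.31 among cells with Y-linked counts and -1.61 among those without.

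Slc2a3 (GLUT3, a high-affinity transporter) ran from 0 through 4.11 to 72.1 FPKM in pEPI and from 0 through 7.84 to 149.8 FPKM in pPrE. Most of each branch was low, and a few cells of either branch were high. The log2 ratio of 0.97 (0.94 to 1.01) rested on few cells: it was 0.51 without the pPrE cell in well C5, which held 41.1% of the pPrE counts of this gene. It was -1.94 among cells with Y-linked counts and 0.95 among cells without them, so no common direction was seen. Slc2a1 was the higher of the pair in 24 of 25 pEPI and 16 of 23 pPrE cells. Among pPrE cells with Y-linked counts it led in 12 of 12 and held 96.5% of the summed FPKM; among those without them it led in 4 of 11, and Slc2a3 held 70.6%. In pEPI cells without them Slc2a1 held 71.2%.

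Hexokinase, which traps glucose as its 6-phosphate, was almost entirely Hk2. Hk2 ran from 6.06 through 12.5 to 35.96 FPKM in pEPI and from 4.48 through 12.1 to 44.6 FPKM in pPrE, at a log2 ratio of 0.07 (0.03 to 0.11). It held 94.4% and 98.0% of the summed FPKM and was the higher in every cell. Hk1 had a mean of 0.634 FPKM over the 48 cells, with counts in 11 pEPI and 6 pPrE cells. Gpi1, the isomerase of the next step, had a log2 ratio of -0.18 (-0.21 to -0.16), with 0.14 among cells with and -0.63, past 1.5-fold, among cells without Y-linked counts.

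In the lower part of glycolysis the most abundant members, Aldoa, Pkm and Gapdh, were close between the branches. Aldoa, an aldolase and the most abundant glycolytic member, ran from 208 through 325 to 452 FPKM in pEPI and from 212 through 327 to 501 FPKM in pPrE. The branches differed by a log2 ratio of 0.02 (0.01 to 0.03), and the ranges were nearly the same. Aldoc, the brain-type aldolase, had a median of 0 in both branches and highest levels of 9.15 and 20.98 FPKM; its log2 ratio was 1.41 (1.25 to 1.57). Counts of Aldoc were found in 9 of 25 and 10 of 23 cells, and its ratio was 2.57 among cells with Y-linked counts and -3.0 among cells without them. Aldoa held 99.6% of the aldolase FPKM in pEPI and 98.9% in pPrE, so Aldoc hardly changed the step.

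Tpi1, which interconverts the triose phosphates, ran from 10.6 through 35.5 to 102 FPKM in pEPI and from 4.15 through 56.9 to 276 FPKM in pPrE. The lowest cell and the 2 highest, in wells B7 and B8, were pPrE cells, and most other cells overlapped. The log2 ratio was 0.65 (0.61 to 0.68), and it was 0.41, below 1.5-fold, without the cell in well B7. Gapdh had a log2 ratio of 0.12 (0.11 to 0.14), and many processed copies of it lie in the genome, so its counts are uncertain.

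Pgk1, an X-linked gene whose product makes the first ATP of the pathway, ran from 1.86 through 13.5 to 30.9 FPKM in pEPI and from 7.95 through 15.9 to 41.2 FPKM in pPrE. Its log2 ratio was 0.34 (0.28 to 0.41), with ranges that overlapped along most of their length. Eno1, the main enolase, ran from 5.54 through 25.3 to 72.4 FPKM in pEPI and from 16.3 through 34.5 to 82.7 FPKM in pPrE, at 0.46 (0.43 to 0.49). Its near-identical copies Eno1b and Gm4735 had 5.37% and 4.41% as many counts as Eno1, so its level is uncertain by about that much. Eno3, the muscle enolase, had counts in 4 pEPI and 4 pPrE cells and a mean of 0.971 FPKM, and Eno1 held 96.9% and 97.7% of the enolase FPKM. Pkm, the pyruvate kinase of these cells, had a log2 ratio of 0.12 (0.11 to 0.13).

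Of the 16 members from hexokinase to pyruvate kinase, 14 reached a mean of 1 FPKM. Over the 48 cells, 5 of the 14 (35.7%) were at least 1.5-fold higher in pPrE. None was so in pEPI, beside 12.3% and 16.4% of all 10880 genes. The median log2 ratio of the 14 was 0.39. Tpi1, 1 of the 5, fell below 1.5-fold without the cell in well B7. Among cells without Y-linked counts, Gpi1 (-0.63) and Aldoc (-3.0) were past 1.5-fold toward pEPI. Pfkl, Pfkm, Pfkp, Tpi1, Pgk1 and Pgam2 were past it toward pPrE there. Of 5 other glycolytic genes and regulators at that mean, 2 were past it toward pPrE and 3 toward pEPI over the 48 cells. The summed FPKM of all 16 had a lowest, median and highest of 709, 965 and 1248 in pEPI and 786, 1070.1 and 1750 in pPrE. The log2 ratio of this sum was 0.25, and the sum was higher in the pPrE cell in 73.6% of pairs. The level of the sum was carried by Aldoa, Pkm and Gapdh, which differed little, and the members that differed more were of lower abundance. The mean of the sum was 956 FPKM in pEPI and 1134 FPKM in pPrE, of which Pgam2 made up 3.71 and 85.1 FPKM.

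**Figure D3:**
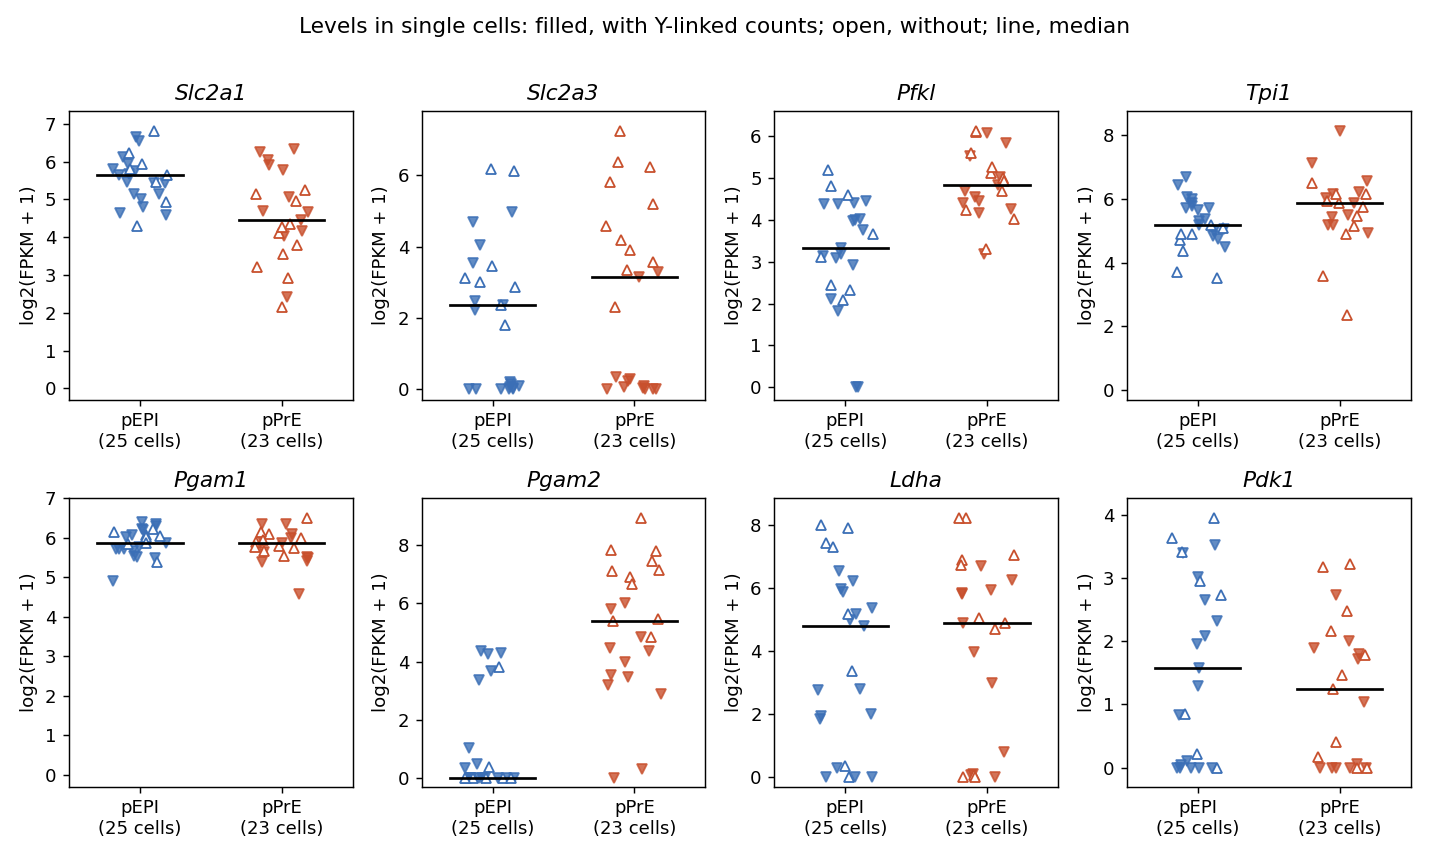
Level of 8 members in each cell, as log2(FPKM + 1), with 25 pEPI cells in blue and 23 pPrE cells in red; filled triangles are cells with and open triangles cells without Y-linked counts, and the line is the median. Pgam2 is at 0 in most pEPI cells and Pfkl is higher in most pPrE cells, while Pgam1 covers the same range in both.

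At the branch point of pyruvate, Ldha differed more from cell to cell than between the branches. It ran from 0 through 26.7 to 255 FPKM in pEPI and from 0 through 28.8 to 299 FPKM in pPrE, and the cells of both branches were spread over the whole range. Its log2 ratio was 0.26 (0.23 to 0.29), and it was -0.01 without the cell in well D1. Ldhb had counts in 3 pEPI cells and 1 pPrE cell, so Ldha held 99.0% and 99.6% of the lactate dehydrogenase FPKM. Slc16a1 (MCT1), which carries lactate and pyruvate across the plasma membrane, ran from 0 through 27.8 to 81.9 FPKM in pEPI and from 0 through 18.4 to 47.8 FPKM in pPrE. Its log2 ratio was -0.43 (-0.46 to -0.39), with wide overlap. Slc16a3 (MCT4) had a mean of 0.826 FPKM and counts in 9 pEPI and 10 pPrE cells; a single pPrE cell, B7, held 59.0% of its pPrE counts.

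The subunits of pyruvate dehydrogenase were level, and its kinase Pdk1 was low. Pdhb, the most abundant of these members, ran from 26.4 through 93.3 to 149 FPKM in pEPI and from 54.5 through 81.2 to 125 FPKM in pPrE, at a log2 ratio of -0.18 (-0.20 to -0.16). Pdha1, the X-linked subunit, ran from 32.1 through 81.8 to 148 FPKM and from 27.9 through 68.3 to 127 FPKM, at -0.09 (-0.11 to -0.06). In either gene the branches overlapped almost fully. Pdk1, which switches the complex off by phosphorylation, ran from 0 through 1.98 to 14.5 FPKM in pEPI and from 0 through 1.36 to 8.33 FPKM in pPrE. Its log2 ratio was -0.89 (-0.98 to -0.80), and the medians lay closer together than the means because a few pEPI cells were high.

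No member of the pentose phosphate pathway was 1.5-fold different over the 48 cells, and 7760 of all 10880 genes were within that limit too. Taldo1 (transaldolase), its most abundant member, ran from 83.0 through 104 to 183 FPKM in pEPI and from 62.1 through 105 to 175 FPKM in pPrE, at a log2 ratio of 0.02 (-0.01 to 0.04). G6pdx, the X-linked enzyme that opens the pathway, ran from 0 through 17.5 to 53.5 FPKM and from 0 through 22.03 to 87.5 FPKM, at 0.35 (0.30 to 0.40). Cells without G6pdx counts were found in both branches, 3 of 25 and 3 of 23. It shares exon bases with Ikbkg, so its counts are uncertain. Pgd and Tkt were at 0.23 and 0.06, and Pgd was at -0.03 among cells with Y-linked counts.

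None of the 9 TCA cycle members was 1.5-fold different over the 48 cells, and their median log2 ratio was 0.00. Of all 10880 genes, 7760 were within 1.5-fold too. The largest value was that of Idh1, the cytosolic isocitrate dehydrogenase, which ran from 125 through 284 to 513 FPKM in pEPI and from 59.4 through 364 to 738 FPKM in pPrE, at 0.36 (0.35 to 0.37). The pPrE cells reached both lower and higher than the pEPI cells. The lowest value was that of Sucla2, the ATP-forming subunit of succinyl-CoA ligase, at -0.31 (-0.33 to -0.29). Of the rest, Fh1 (0.27), Mdh1 (0.25) and Mdh2 (0.11) were above 0, and Cs (-0.01), Idh2 (0.00 to 2 decimals), Ogdh (-0.12) and Idh3a (-0.16) were at or below it. Among cells without Y-linked counts, Fh1 (0.58) and Sucla2 (-0.57) came close to 1.5-fold, beside 0.20 and -0.16 among cells with them. Mdh2 was the evenest member from cell to cell, with a coefficient of variation of 0.191 over the 48 cells, while Ldhb (3.41), Eno3 (2.62), Slc16a3 (2.54) and Pgam2 (2.04) varied the most.

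Counts on 4 Y-linked genes separated the cells into 29 with at least 242 counts and 19 with at most 1 count. The cells with them were 17 pEPI and 12 pPrE cells, and those without were 8 and 11. Since no label gives the embryo, this split and differences between embryos cannot be told apart. Of the 34 members, 7 were at least 1.5-fold higher in cells without Y-linked counts (20.6%, beside 15.4% of all 10880 genes) and 3 in cells with them (8.82%, beside 14.3%). The 7 were Slc2a3, Pfkm, Pfkp, Pgam2, Ldha, Pdk1 and Slc16a1, and the 3 were Aldoc, Tpi1 and Gapdh. Within the branches, the log2 ratio of cells without over cells with Y-linked counts was -0.55 in pEPI and 1.58 in pPrE for Pfkm. For Aldoc it was 0.72 in pEPI and -4.86 in pPrE. The ratio of the branches also changed with this split in members not yet named for it. Among cells without Y-linked counts, Pgk1 (0.69) and Slc16a1 (-0.86) were past 1.5-fold, beside 0.16 and -0.20 among cells with them. Hk2 (-0.20 with and 0.39 without), Ldha (0.37 and -0.20), Mdh1 (0.54 and -0.21) and the rare Slc16a3 (2.59 and -1.12) turned direction. So did Pgd (-0.03 and 0.54) and Pkm (0.28 and -0.08) and, at smaller sizes, Aldoa, Taldo1, Cs, Idh2 and the rare Eno3.

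For Slc2a3 and Ldha this split was wider than that of the branches. Slc2a3 ran from 0 through 0.0672 to 30.6 FPKM in cells with Y-linked counts and from 2.50 through 13.9 to 149.8 FPKM in cells without them. Every cell without Y-linked counts thus had Slc2a3, and most of those with them had next to none. The log2 ratio of cells without over cells with Y-linked counts was 3.16, and it was 2.01 within pEPI and 4.91 within pPrE. For Ldha it was 1.79, with 2.06 within pEPI and 1.49 within pPrE. For Pgam2 it was 3.06, but -1.50 within pEPI and 2.98 within pPrE: the pEPI cells were low in either set, and the pPrE cells without Y-linked counts averaged the most. Within cells with Y-linked counts alone, Pgam2 was still higher in pPrE, at a log2 ratio of 2.09, and within cells without them it was 6.56.

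Along the plate, wells with and without Y-linked counts formed 4 runs, and the high cells were not spread evenly over the 2 runs without them. Ldha averaged 134 FPKM in wells C3 to D8 (14 cells) and 7.65 FPKM in wells F4 to F8 (5 cells), beside 23.7 and 38.2 FPKM in the runs with Y-linked counts. Slc2a3 averaged 41.6 and 14.1 FPKM in the runs without and 3.02 and 5.20 FPKM in the runs with them. The 5 highest Slc2a3 cells were in wells C5, D1, C6, C4 and C3, and the 5 highest Ldha cells in D1, C5, C3, C8 and C4, from both branches. Pgam1 averaged 54.7, 58.9, 60.5 and 66.7 FPKM over the 4 runs with the branches pooled. Its pEPI and pPrE means were 50.8 and 59.6 FPKM in A1 to C2 and 61.1 and 57.2 FPKM in C3 to D8. They were 70.0 and 43.9 FPKM in E1 to F3 and 63.5 and 68.8 FPKM in F4 to F8.

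**Figure D4:**
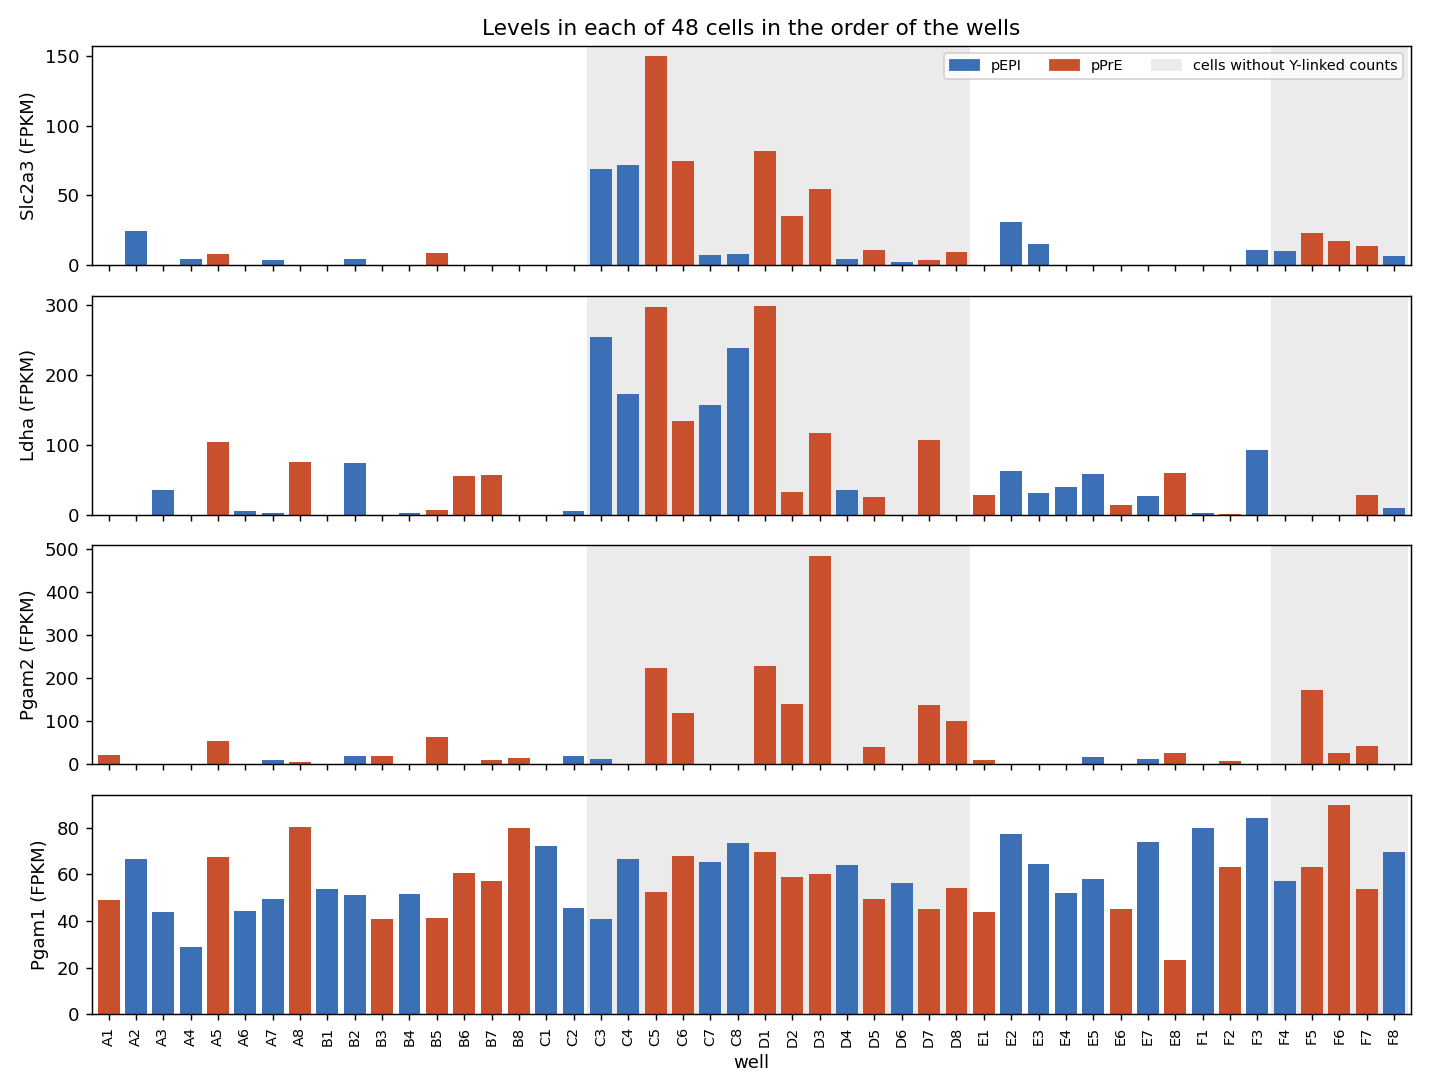
FPKM of 4 members in each of the 48 cells in the order of the wells, pEPI in blue and pPrE in red, with cells without Y-linked counts on grey. High Slc2a3 and Ldha cells of both branches lie between wells C3 and D8, high Pgam2 cells are pPrE cells, and Pgam1 varies the least of the 4.

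The 3 X-linked members, of which cells with 2 active X chromosomes could hold more, were not higher as a group in cells without Y-linked counts. Their log2 ratios, cells without over cells with these counts, were -0.03 for Pgk1, 0.14 for Pdha1 and -0.50 for G6pdx, with a median of -0.03. The 425 X-linked genes with a mean of at least 1 FPKM had a median of 0.13, beside 0.01 for all 10880 genes. Of the 425, 58.1% were above 0.

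Over the 48 cells, few pairs of members went up and down together. With the branch means removed, Pearson's r of log2(FPKM + 1) had a median of 0.02 over the 561 pairs of the 34 members; it was above 0.4 in 12 pairs and below -0.4 in 8. The highest was between Pgk1 and Fh1 at 0.58, and the glycolytic genes Eno1 and Pkm were at 0.51 and Pfkl and Eno1 at 0.47. The lowest was between Slc2a3 and Gapdh at -0.61, and it was -0.21 once the means of the cells with and without Y-linked counts had been removed too. These cells share embryos and the scaling of their libraries, so the values are descriptions. No share over pairs of other genes is given, so whether the members differ from other genes in this was not tested.

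Of 55 other genes of these pathways, 37 reached a mean of 1 FPKM, and of these 6 were at least 1.5-fold higher in pPrE (16.2%) and 8 in pEPI (21.6%). These shares are near the 12.3% and 16.4% of all 10880 genes, and the genes are described singly. Pdp2, a phosphatase that switches pyruvate dehydrogenase back on, ran from 3.14 through 29.1 to 74.1 FPKM in pEPI and from 0 through 3.94 to 22.3 FPKM in pPrE. Most pEPI cells lay above most pPrE cells, at a log2 ratio of -2.62 (-2.67 to -2.57), with -3.06 among cells with and -1.72 among cells without Y-linked counts. Mpc1, a subunit of the carrier that brings pyruvate into mitochondria, was also lower in pPrE, at -0.81 (-0.88 to -0.74), with -0.94 among cells with and -0.36, short of 1.5-fold, among cells without Y-linked counts. The kinases Pdk2 and Pdk3 were higher in pPrE, at 1.27 (1.18 to 1.36) and 1.05 (0.92 to 1.18), and Pdk1 was lower. Pdk4, with a mean of 0.955 FPKM, did not reach 1 FPKM; it had counts in 8 pEPI and 2 pPrE cells and a log2 ratio of -4.21 (-4.97 to -3.54). The cell in well A5 held 94.4% of its 18 pPrE counts, and without it the ratio was -9.36. Pdk2 had a median of 1.23 FPKM in pEPI and 9.80 FPKM in pPrE and was counted in 16 of 25 and 23 of 23 cells. Pdp1, the other phosphatase, was at 1.52 from counts in 6 pEPI and 4 pPrE cells, and at 0.58 without the cell in well D7 or 2.87 without that in B4; among cells with Y-linked counts it was at -0.23.

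Among genes of glucose uptake and the sugar phosphates, Slc2a8 (GLUT8) was lower in pPrE, at -1.24 (-1.29 to -1.18), with medians of 25.2 FPKM in pEPI and 10.5 FPKM in pPrE. It was -1.52 among cells with Y-linked counts and -0.41, short of 1.5-fold, among cells without them. Tigar, a fructose-2,6-bisphosphatase that restrains glycolysis, was at -0.76 (-0.80 to -0.71). The bifunctional regulators of phosphofructokinase were low and went in different directions, with Pfkfb1 at -0.96, Pfkfb4 at -1.03 and Pfkfb2 at 0.59; Pfkfb1 and Pfkfb2 share exon bases with neighbours and are uncertain. Bpgm was at 1.97 from counts in 3 pEPI and 7 pPrE cells, and the cell in well C4 held nearly all its pEPI counts: without it the ratio was 7.56. Me2 was at 0.96, Tktl1 at -0.69 and Pck2 at -0.77; without 1 cell Pfkfb2 came to 0.22, Pfkfb4 to -0.51, Tktl1 to -0.12 and Pck2 to -0.47, all short of 1.5-fold. Tktl1 turned with the Y-linked split, at -1.16 among cells with and 0.87 among cells without these counts. Past 1.5-fold in only 1 of the sets were Pck2 (-0.14 with and -1.55 without), Pfkfb2 (0.09 and 1.28), Pfkfb1 (-1.07 and -0.32) and Bpgm (7.12 and 0.30). Fbp2, a fructose-1,6-bisphosphatase known from muscle, was named after its values had been seen: it had 306, 672 and 1156 FPKM as lowest, median and highest level in pEPI and 327, 567 and 1112 FPKM in pPrE. Its mean, 650.4 FPKM, was above that of every member, and its log2 ratio was -0.13 (-0.15 to -0.12).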

How the data were processed

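Counts per gene were made by the authors with htseq-count on Ensembl 87 genes of mm10 and deposited as whole numbers; the submitters' processing notes name STAR and HTSeq, without versions. Libraries below 500000 mapped reads had been dropped by the authors. From these counts FPKM was computed here as DESeq2 does it, with library sizes from the median of ratios over 3665 genes and gene lengths from GENCODE M21 (GRCm38) as the union of exons. Genes without a length held 0.0146% of the counts.

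The members and all lists were chosen with earlier results of these data known. Genes with a mean of at least 1 FPKM over the 48 cells and a 1.5-fold difference of mean FPKM were counted; no test was run, because the cells are 1 sample. The interval of a log2 ratio is as wide as the exact conditional interval for summed counts. Exact Poisson intervals are given for summed counts and Clopper-Pearson intervals for shares of cells, at 95%. The intervals of ratios and summed counts cover counting error of reads only and are too narrow for molecules, since several reads can come from 1 molecule. Those of shares treat cells as independent draws, which cells of the same embryo are not. No interval takes in variation from embryo to embryo. Cells were split at 100 counts over Ddx3y, Eif2s3y, Uty and Kdm5d.

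Described one by one were members at least 1.5-fold different between the branches, those of steps with more than 1 isoform, the most abundant of each role, X-linked members and, of other pathway genes, those at least 1.5-fold different. Near-identical copies were transcripts aligned at 95% identity or more over at least 300 bases. The 72 alternatives listed changed the library size, the summary over cells, the depth (thinning, seed 7), the filter, the fold, the grouping of cells (PC1 or Ward clusters of 3511 variable genes without the genes studied) or the cells used. Leaving out each run of wells was chosen after seeing the data. The steps were tested on simulated data. Versions were matplotlib 3.10.9, scipy 1.17.1, numpy 2.4.6, pandas 2.3.3 and Python 3.11.15.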

Additional observations from a re-analysis of the deposited data

How the results depend on the processing

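The number of members at least 1.5-fold higher in pPrE stayed between 4 and 8 under all alternatives, and the median log2 ratio of the members between 0.018, without wells A1 to C2 (chosen after seeing the data), and 0.17. The number higher in pEPI, 2, was 3 with Ward clusters, among cells with Y-linked counts only and without well letter A, 4 among cells without Y-linked counts only, 4 with no filter on the mean FPKM, 1 with a mean FPKM of at least 10 (fewer genes counted), 0 at 2-fold, and 1 without the cells of wells C3 to D8, an alternative chosen after seeing the data; the causes were not tested. The numbers over all genes moved with the setting too. At least 1.5-fold higher in pPrE were 1335 genes in the main setting and 911 by the difference of mean log2(FPKM + 1). Among cells without Y-linked counts only, 2249 genes were. Higher in pEPI were 1785, 1121 and 2328 genes in these settings. The median of the 3 X-linked members lay between -0.40 (only pEPI cells) and 0.13 (only pPrE cells).

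Of the 8 members past 1.5-fold, 6 had the same direction under all 18 alternatives, and Pfkl (1.25 to 1.596) and Pgam2 (2.09 to 6.56) were past 1.5-fold in all 18. Tpi1 fell short in 4 (lowest 0.397), Slc2a1 in 2 (-0.31), Pdk1 in 2 (-0.43) and Pfkp in 1 (0.52). Slc2a3 reversed to -0.077 with branches by Ward clusters, to -1.94 among cells with Y-linked counts only and to -0.29 without wells C3 to D8. Aldoc reversed to -3.0 among cells without Y-linked counts only and to -0.34 without wells A1 to C2. The cause was not tested. Grouping by the sign of PC1 put 47 of 48 cells in the branch read from the dendrogram, and Ward clusters 39. No paired analysis was possible because the cells carry no replicate numbers that pair them.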
